A study of Mus musculus with 17 samples.

Results

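The miR-29 family of microRNAs was examined in RNA of fecal exosomes, membrane-bound vesicles shed by cells, from mice. The members were chosen by name, as every arm of miR-29a, miR-29b and miR-29c, which gave 7 mature microRNAs. Of these, 3 were analysed among the 1487 small RNAs (smRNAs) of the count table: miR-29c-3p, miR-29c-5p and miR-29b-2-5p. The arms miR-29a-3p, miR-29a-5p, miR-29b-3p and miR-29b-1-5p were not analysed here, so the values below describe the microRNAs of the miR-29b-2 and miR-29c hairpins and not the whole family. All 17 libraries came from mice without a working interleukin 10 gene (IL-10 KO) on the C57BL/6J background, a strain in which colitis can develop. The mice were obtained at 4 weeks of age and housed singly, and their age at each sampling is not given in the sources used here. The start-point group held 10 libraries, from 7 male and 3 female mice, and the end-point group held 7, of which 5 were from males and 2 from females. There were 10 mice, 6 of them sampled at both time points, and end-point libraries 1 and 2 are both labelled as mouse 1. No wild-type mouse was analysed here, and both groups carry the same deletion, so the comparison is of time points within IL-10 KO mice. Age and any course of disease between the time points cannot be told apart.

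A microRNA hairpin yields a 5p and a 3p strand, and the strand retained by an Argonaute protein pairs with messenger RNAs mainly through its seed, bases 2 to 8. In miR-29 the 3p strand is the one usually retained in tissue. Through a shared seed the miR-29 3p strands repress messages for collagens, elastin and other extracellular matrix proteins, and transforming growth factor beta lowers miR-29 in fibroblasts, which links the family to fibrosis. In the intestine miR-29 has also been tied to epithelial permeability through messages for barrier proteins such as claudin-1. The messages themselves were not analysed here.

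The mature sequences of the 3 arms are shown to make plain that they carry 3 different seeds, and those of miR-29a-3p and miR-29b-3p are shown to place miR-29c-3p within the family. They come from RefSeq on GRCm38.p6, read 5′ to 3′, with the seed in capitals.
mmu-miR-29c-3p: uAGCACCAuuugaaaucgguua
mmu-miR-29c-5p: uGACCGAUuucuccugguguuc
mmu-miR-29b-2-5p: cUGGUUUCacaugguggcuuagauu
mmu-miR-29a-3p: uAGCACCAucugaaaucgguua
mmu-miR-29b-3p: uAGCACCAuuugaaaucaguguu

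The seed AGCACCA was shared by the miR-29a, miR-29b and miR-29c 3p strands and by no other mature mouse sequence in the RefSeq table. Counting from 1 at the 5′ end with miR-29c-3p as the reference, miR-29a-3p differed by U10C, and 21 of 22 bases were the same. Over the same 22 positions miR-29b-3p differed by G18A, U21G and A22U. How reads that match closely related microRNAs were assigned is not given in the sources used here, so the miR-29c-3p values carry that uncertainty. Both 5p strands have seeds unrelated to AGCACCA. The seed GACCGAU of miR-29c-5p was found in no other sequence of that table, and UGGUUUC of miR-29b-2-5p was shared with miR-6338.

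All 3 arms come from one cluster on mouse chromosome 1 (GRCm38, plus strand). The Mir29b-2 hairpin spans chr1:195037040-195037120 and Mir29c spans chr1:195037547-195037634, with 426 bases between them. In the GENCODE vM21 annotation both lie in exon 3 of a retained-intron transcript of the noncoding gene A330023F24Rik, on the same strand. On the opposite strand both overlap untranslated sequence in exon 11 of Cd46, a protein-coding gene for a complement regulator. The miR-29c-5p strand maps to chr1:195037562-195037583, miR-29c-3p to chr1:195037600-195037621 and miR-29b-2-5p to chr1:195037050-195037074. The family's other hairpins, Mir29a and Mir29b-1, lie on chromosome 6.

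Library totals ran from 87527 to 178075 counts at the start-point and from 32320 to 161862 at the end-point, where libraries 1, 3 and 7 held fewer than 75000. At these depths the miR-29 arms were sparse, with 188 counts of miR-29c-3p, 364 of miR-29c-5p and 277 of miR-29b-2-5p in all 17 libraries. Levels are given in CPM (deposited counts scaled to a common library total), and 3 counts, taken as the floor, correspond to 34.3 CPM in start-point library 2 and to 92.8 CPM in end-point library 3, the shallowest. By mean CPM over all libraries miR-29c-5p ranked 926 of 1439 microRNAs, miR-29c-3p 1058 and miR-29b-2-5p 1077, all below the median microRNA, whose mean was 235 CPM. Some libraries stood apart across all tested smRNAs. Start-point libraries 1, 6 and 7 had Spearman correlations of 0.856 to 0.893 with each other and of 0.381 to 0.543 with start-point libraries 2, 3, 5, 8, 9 and 10. Start-point library 4 belonged clearly to neither set, at 0.633 to 0.682 with libraries 1, 6 and 7 and 0.527 to 0.646 with the others. It was kept where libraries 1, 6 and 7 were left out. End-point libraries 1, 3 and 7, the shallow ones, correlated at 0.250 to 0.529 with the other end-point libraries, which correlated at 0.609 to 0.721 among themselves. Results are therefore also given without these libraries where that changes them, a choice made after seeing the data.

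The usual guide strand, miR-29c-3p, was variable at both time points and did not pass the test between them. Its start-point levels were 103, 0, 27.0, 39.3, 124, 183, 192, 16.0, 38.4 and 28.8 CPM in libraries 1 to 10. Its end-point levels were 0, 43.2, 1052, 154, 92.8, 72.8 and 0 CPM in libraries 1 to 7. All end-point levels lay within the start-point range except the highest, in library 3 from male mouse 3, which stood far above all others. That value rests on 34 counts of 32320, with a 95% Wilson interval of 753 to 1470 CPM that covers counting error only. There was no count of miR-29c-3p in start-point library 2 or in end-point libraries 1 and 7, where the floor is 34.3, 54.8 and 47.0 CPM. In these 3 libraries the 95% Wilson interval reaches 43.9, 70.2 and 60.2 CPM. Start-point libraries averaged 75.2 ± 70.5 CPM (SD, n = 10; median 38.9) and end-point libraries 202 ± 379 CPM (SD, n = 7; median 72.8). The log2 fold change, end-point over start-point, was 1.23 ± 0.83 (SE), with an adjusted p of 0.258 by edgeR's quasi-likelihood test. In the same test it was 0.36 without end-point library 3 (adjusted p = 0.766) and 0.51 with mouse as a block (0.791). Without start-point libraries 1, 6 and 7 and end-point libraries 1, 3 and 7 together it was 2.33 (edgeR adjusted p = 0.0158). Those libraries were picked out after their profiles were seen. They hold the start-point levels of 183 and 192 CPM, both end-point counts of 0 and the end-point level of 1052 CPM. This last fit thus describes the remaining libraries and is no test of the change.

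The other strand of that hairpin, miR-29c-5p, was the most abundant of the 3 at the start-point and had lower values at the end-point. Start-point levels were 51.6, 206, 317, 225, 203, 21.5, 23.3, 472, 346 and 512 CPM in libraries 1 to 10. End-point levels were 54.8, 0, 61.9, 51.3, 50.6, 99.3 and 110 CPM in libraries 1 to 7. In 7 of the 10 start-point libraries miR-29c-5p was above every end-point library, and in libraries 1, 6 and 7 it lay within the end-point range. Start-point libraries averaged 238 ± 176 CPM (SD, n = 10), against 61.1 ± 36.0 CPM (SD, n = 7) for end-point libraries. End-point counts were small, from 0 to 15 per library, and the 0 in end-point library 2 allows up to 18.5 CPM. The log2 fold change was −1.36 ± 0.58 (SE), with an unadjusted p of 0.0273 and an adjusted p of 0.0718 by edgeR's quasi-likelihood test, above the threshold of 0.05. The value was below 0 in every alternative run in which the arm passed the filter, which it did not in males alone, and which side of the threshold it fell on depended on the choice. It passed with the DESeq2 Wald test (adjusted p = 0.0289), with edgeR on library totals without scaling factors (0.0208), and with edgeR after leaving out start-point library 6 (0.0441), start-point library 7 (0.0464) or libraries 1, 6 and 7 together (−1.79, 0.0153). With mouse as a block edgeR gave −1.11 and an adjusted p of 0.314, and without the shallow end-point libraries −1.09 and 0.239.

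The 5p strand of the neighbouring hairpin, miR-29b-2-5p, showed no direction that held. Its start-point levels were 6.45, 126, 486, 39.3, 138, 21.5, 46.6, 152, 207 and 332 CPM in libraries 1 to 10, and its end-point levels were 0, 49.4, 0, 34.2, 110, 179 and 172 CPM in libraries 1 to 7. The ranges overlapped, with the lowest start-point values again in libraries 1, 6 and 7 and also in library 4. Both end-point libraries with no count, 1 and 3, are shallow, and there a count of 0 allows up to 54.8 and 92.8 CPM. Means were 155 ± 153 CPM (SD, n = 10) for start-point and 77.8 ± 76.3 CPM (SD, n = 7) for end-point libraries. The log2 fold change was −0.16 ± 0.70 (SE), with an adjusted p of 0.876 by edgeR's quasi-likelihood test. It was 0.43 without the shallow end-point libraries and 0.30 without start-point library 3.

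**Figure D1:**
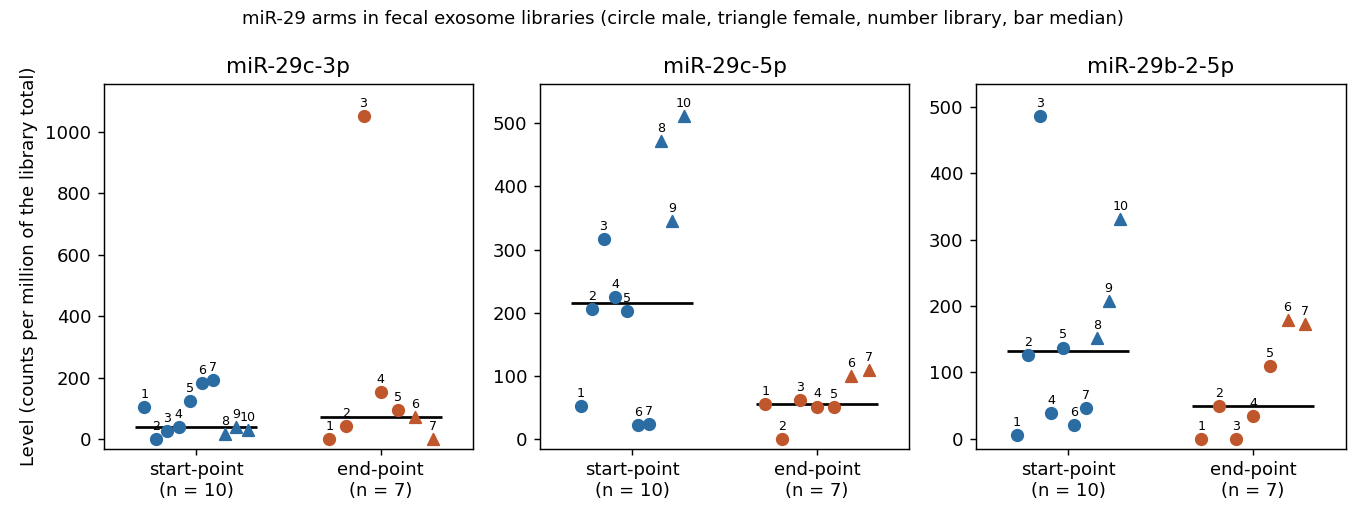
Level of each miR-29 arm in CPM (vertical axis, linear, a different scale in each panel) in the 10 start-point and 7 end-point libraries, with circles for male and triangles for female mice, library numbers beside the points and a bar at the median. The end-point library at 1052 CPM stands apart for miR-29c-3p, and 7 of 10 start-point libraries lie above all end-point libraries for miR-29c-5p.

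None of the 3 arms was called between the time points at an adjusted p under 0.05 by edgeR's quasi-likelihood test, and 1, miR-29c-5p, had an unadjusted p under 0.05. Over all 1270 smRNAs tested, 428 were called, 33.7%, of which 221 were higher and 207 lower at the end-point, and 571 had an unadjusted p under 0.05. With the DESeq2 Wald test 521 smRNAs passed, including 1 of the 3 arms. No arm had CPM values that separated the time points without overlap, which 5.59% of the tested smRNAs did. The median log2 fold change of all tested smRNAs was −0.18. Relative to that median, miR-29c-5p was at −1.17, miR-29c-3p at 1.42 and miR-29b-2-5p at 0.02. With library totals alone the median was −0.65, and the 3 arms lay at −1.30, 2.01 and −0.28 relative to it. In bulk RNA of this kind, fewer vesicles or cells of a type and less of a microRNA in each cannot be told apart.

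The strands of the miR-29c hairpin were compared within each library, which needs no scaling between libraries. At the start-point miR-29c-5p had more counts than miR-29c-3p in 7 of 10 libraries, for example 71 against 4 in library 10 and 59 against 2 in library 8. The reverse held in start-point libraries 1, 6 and 7, with 16, 17 and 33 counts of miR-29c-3p against 8, 2 and 4 of miR-29c-5p. At the end-point miR-29c-5p had more counts in 3 of 7 libraries (1, 6 and 7), and library 3 had 34 counts of miR-29c-3p against 2 of miR-29c-5p. The log2 ratio of 3p over 5p, with 0.5 added to each count, averaged −1.67 ± 2.99 (SD, n = 10) in start-point libraries and 0.41 ± 3.02 (SD, n = 7) in end-point libraries. The ratio ran from −5.21 to 2.90 at the start-point and from −3.91 to 3.91 at the end-point, so the groups overlapped. The difference of 2.08 was smaller than the spread within either group, and its two-sided exact permutation p was 0.177.

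Without start-point libraries 1, 6 and 7 the difference in the miR-29c ratio was 3.75, with an exact permutation p of 0.0146. Without end-point libraries 1, 3 and 7 as well it was 4.79, with an exact permutation p of 0.00303. These libraries were picked out after their profiles were seen, and those profiles include the arms. Start-point libraries 1, 6 and 7 are also the only start-point ones with more counts of miR-29c-3p than of miR-29c-5p. Leaving them out raises the difference by itself, so these p-values are no test of a shift. The values describe the remaining libraries. Summed leukocyte marker microRNAs were 2834 to 4174 CPM in start-point libraries 1, 6 and 7 and 1101 to 2746 CPM in the other start-point libraries, and their part in the strand balance was not tested. That list had 6 of its 8 microRNAs in the table, none at 0 in all 3 of those libraries. Among them miR-142a-3p alone ran from 80.0 to 2858 CPM over the start-point libraries. Those 3 libraries were set apart on their whole profiles, and the share of all smRNAs that separates them from the others was not counted. Summed epithelial markers (10 of 11 in the table, none at 0 throughout) overlapped, at 8750 to 11444 CPM in those 3 libraries and 3899 to 20115 CPM in the others. Summed red cell markers were 537 to 1006 CPM in those 3 libraries and 149 to 696 CPM in the others, with medians of 542 and 203 CPM. Summed smooth muscle and stromal markers were 458 to 2308 CPM and 876 to 1903 CPM.

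**Figure D2:**
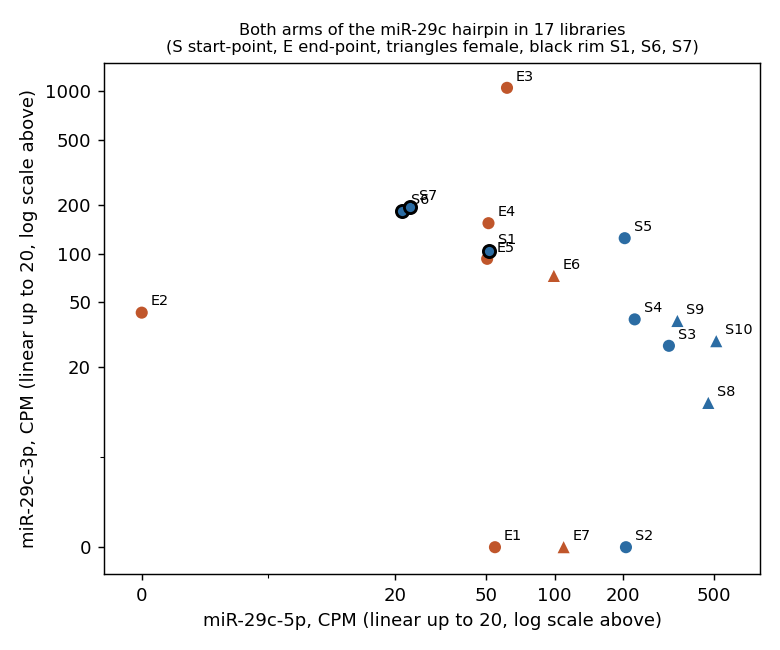
Level of miR-29c-3p (vertical axis) against miR-29c-5p (horizontal axis) in CPM for each of the 17 libraries, linear up to 20 CPM and logarithmic above, with S for start-point, E for end-point, triangles for females and a black rim for start-point libraries 1, 6 and 7. Most start-point libraries lie at the lower right, where miR-29c-5p exceeds miR-29c-3p, and libraries S1, S6 and S7 lie at the upper left among end-point libraries.

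The miR-29c hairpin was set among all 334 hairpins with both strands tested. At the start-point the 5p strand was the more abundant by mean log2 ratio in 167 hairpins, and 53 other hairpins had a ratio at or below that of miR-29c. At the end-point the 5p strand led in 175. The shift of miR-29c toward the 3p strand was equalled or exceeded by 45 other hairpins, and by 100 when direction is ignored, with a median shift of −0.11 over all hairpins. Adjusted over the 334 hairpins, the exact permutation p of miR-29c was 0.312, whereas 90 hairpins, 26.9%, were called.

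**Figure D3:**
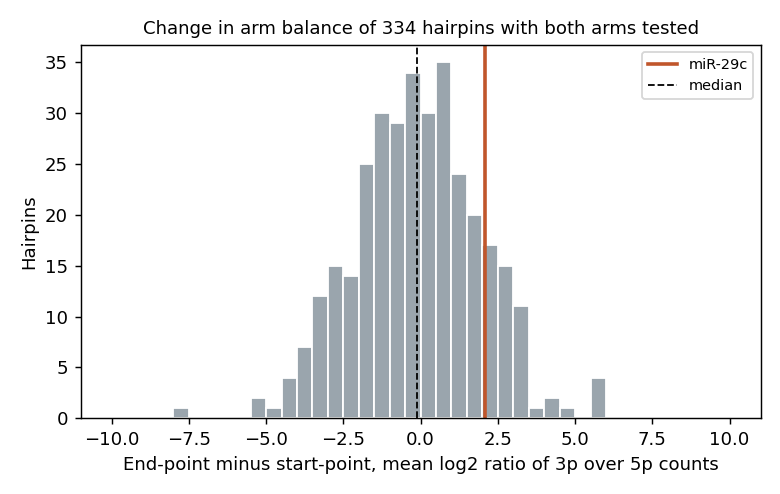
Number of hairpins (vertical axis) by the change in mean log2 ratio of 3p over 5p counts, end-point minus start-point (horizontal axis), for the 334 hairpins with both strands tested. The solid line marks miR-29c at 2.08, to the right of the dashed median at −0.11 and inside the main body of the distribution.

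The 5p strands of the neighbouring hairpins, miR-29b-2-5p and miR-29c-5p, were high and low in much the same start-point libraries. Their CPM values had a Spearman rho of 0.78 over the 10 start-point libraries, of 0.61 over the 7 left without libraries 1, 6 and 7, and of 0.31 over the 7 end-point libraries. By contrast, miR-29c-3p had a rho with miR-29c-5p of −0.73 at the start-point, −0.29 without libraries 1, 6 and 7, and −0.20 at the end-point. The rho of miR-29c-3p with miR-29b-2-5p was −0.56 at the start-point and −0.26 at the end-point. These points share library totals and low counts, and the correlations are given as descriptions. The log2 ratio of miR-29b-2-5p over miR-29c-5p averaged −0.76 ± 1.15 (SD, n = 10) in start-point libraries and 0.13 ± 2.32 (SD, n = 7) in end-point libraries. Their difference, 0.89, had an exact permutation p of 0.316, and adjusted over the 2 ratios computed both this and the miR-29c ratio had a p of 0.316. Without the shallow end-point libraries the difference was 2.12, with an exact permutation p of 0.0190. That test takes no account of mouse. With all libraries, the mean change within the 6 mice sampled at both time points was 0.69 (exact permutation p = 0.406 by flipping signs within mice).

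Within the 6 mice sampled at both time points, with the mean of both end-point libraries taken for mouse 1, miR-29c-5p was lower at the end-point in 5. It went from 472 to 99.3 CPM in mouse 9, from 346 to 110 CPM in mouse 11, from 317 to 61.9 CPM in mouse 3, from 203 to 51.3 CPM in mouse 5 and from 51.6 to 27.4 CPM in mouse 1. The fall in mouse 1 rests on the averaging, since its end-point libraries 1 and 2 were at 54.8 and 0 CPM. In mouse 7, whose start-point library was number 7, miR-29c-5p went from 23.3 to 50.6 CPM. The share of all smRNAs that were lower in as many mice was not counted. The guide strand miR-29c-3p was higher in 3 mice and lower in 3, with values of 27.0 and 1052 CPM in mouse 3 and of 192 and 92.8 CPM in mouse 7. Likewise miR-29b-2-5p was higher in 3 and lower in 3, from 486 to 0 CPM in mouse 3 and from 152 to 179 CPM in mouse 9. The miR-29c ratio of 3p over 5p was higher at the end-point in 3 of 6 mice, and its mean change was 1.70 (exact permutation p = 0.344 by flipping signs within mice, with 0.0312 the smallest p possible for 6 mice).

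**Figure D4:**
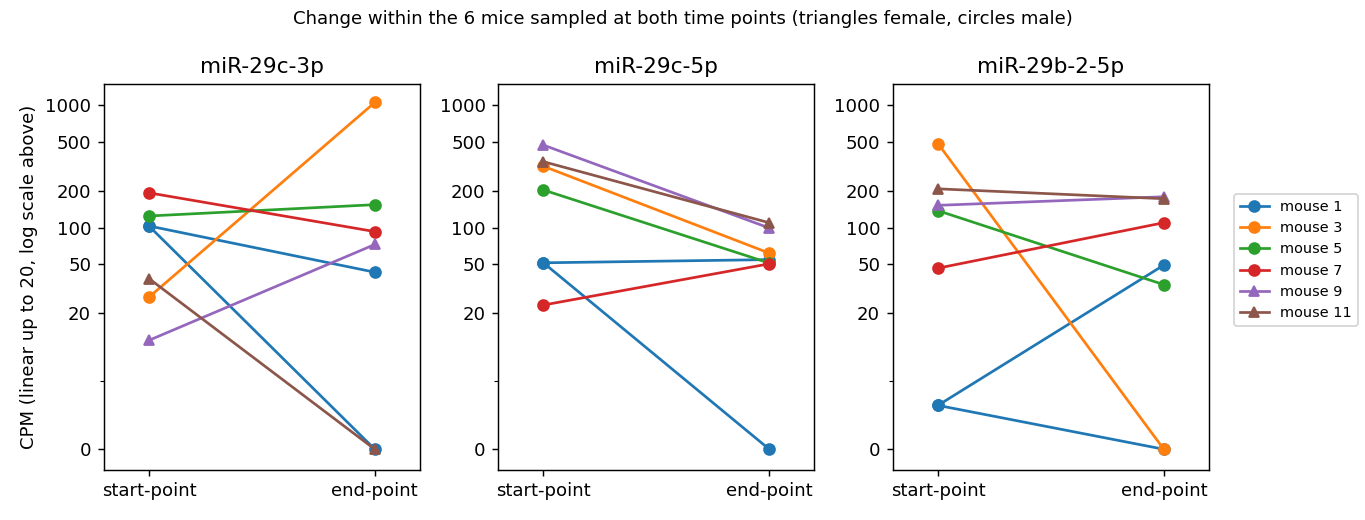
Level of each arm in CPM (vertical axis, linear up to 20 and logarithmic above) at both time points in the 6 mice with both, 1 line per end-point library, so that mouse 1 has 2 lines, with triangles for females and circles for males. Lines for miR-29c-5p mostly run downward, and those for the other arms run both ways.

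Females and males were compared with time point as a covariate, and none of the 3 arms was called. Of the 1356 smRNAs tested, 0% were called by edgeR's quasi-likelihood test, 133 had an unadjusted p under 0.05, and the DESeq2 Wald test called 41, none of them a miR-29 arm. The arm nearest to the threshold was miR-29c-3p, at −2.48 ± 0.93 (log2, SE; female over male), with an unadjusted p of 0.0130 and an adjusted p of 0.384 by edgeR's quasi-likelihood test. Its levels were 16.0 to 38.4 CPM in the 3 start-point females and 0 to 192 CPM in the 7 start-point males, and 0 to 72.8 CPM in the 2 end-point females against 0 to 1052 CPM in the 5 end-point males. The log2 fold change of miR-29c-5p was 1.01 ± 0.55 (SE), with an adjusted p of 0.570 in edgeR's test. At the start-point miR-29c-5p was 346 to 512 CPM in the 3 females and 21.5 to 317 CPM in the 7 males. These unscaled CPM values did not overlap, which 16.6% of the tested smRNAs showed in that direction and 0.394% in the other. The scaling factors of edgeR, which CPM leaves out, were 1.48, 1.67 and 1.92 in those females and 0.763 to 1.27 in those males. A larger factor lowers the scaled level, and overlap on that scale was not counted. At the end-point miR-29c-5p was 99.3 and 110 CPM in the 2 females and 0 to 61.9 CPM in the 5 males. These CPM values again did not overlap, which 4.17% of the tested smRNAs showed in that direction. Start-point libraries 1, 6 and 7 are all from males. The log2 fold change of miR-29b-2-5p was 0.76 ± 0.74 (SE), with an adjusted p of 0.740 in edgeR's test, and its end-point levels were 172 and 179 CPM in females and 0 to 110 CPM in males, also among that 4.17%. Its start-point levels overlapped, at 152 to 332 CPM in females and 6.45 to 486 CPM in males.

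Whether the change with time differed between the sexes was tested as an interaction, with 0% of 1462 smRNAs called by edgeR and 93 at an unadjusted p under 0.05. The DESeq2 Wald test called 2, neither of them a miR-29 arm. The interaction terms were 0.39 ± 1.56 (SE) for miR-29c-3p, 0.33 ± 1.18 (SE) for miR-29c-5p and 1.26 ± 1.55 (SE) for miR-29b-2-5p, with adjusted p of 0.975, 0.967 and 0.865 in edgeR's test. With 2 end-point females these terms have wide errors, and values of either sign lie within them.

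The shares called on the microRNA lists are given as descriptions, since all lists were chosen with earlier results of these data known. The miR-29 arms were set beside 20 other microRNAs linked to matrix and fibrosis, of which 18 were in the table and 14 were tested. Of these, 3 were called higher and 2 lower at the end-point by edgeR's quasi-likelihood test and 9 were not called. That is 35.7% called against 33.7% of all smRNAs, and the list's median log2 fold change was −0.40 against −0.18. The smooth muscle microRNA miR-143-3p rose, with levels of 122 to 1222 CPM in start-point libraries and 274 to 11776 CPM in end-point libraries, and its log2 fold change was 2.87 ± 0.55 (SE; adjusted p = 0.000585 in edgeR's test). The epithelial microRNAs miR-141-3p and miR-200b-3p, which repress the ZEB transcription factors, rose by 2.86 and 3.28 on the log2 scale, with adjusted p of 0.00187 and 0.0260 in edgeR's test. For miR-200b-3p the value fell to 1.38 without end-point library 2, with an adjusted p of 0.291. The enterocyte microRNA miR-192-5p fell by 2.77 and the muscle microRNA miR-133a-3p by 1.94, with adjusted p of 0.00181 and 0.0446 in edgeR's test. The call of miR-133a-3p was lost without start-point library 6, 7 or 8 or any end-point library other than 3, taken singly.

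A second list held 12 microRNAs linked to the intestinal barrier, of which 11 were in the table and 10 tested, with 3 higher, 2 lower and 5 not called. That is 50.0% called against 33.7% of all smRNAs, and the median log2 fold change was −0.20 against −0.18. The hepatocyte microRNA miR-122-5p rose by 5.29 ± 0.82 (SE) on the log2 scale, with an adjusted p of 5.81e-05 in edgeR's test. It ran from 8.01 to 118 CPM in start-point libraries and from 18.3 to 3388 CPM in end-point libraries. The myeloid microRNA miR-223-3p rose by 2.38 and miR-191-5p by 1.96, with adjusted p of 0.00187 and 0.00109 in the same test. The H19-derived miR-675-5p fell by 1.67 and miR-212-3p by 1.21, with adjusted p of 0.00288 and 0.0438, and the call of miR-212-3p was lost without start-point library 1, 2, 4, 6, 7, 8 or 9 or end-point library 3, 4, 5, 6 or 7, taken singly. With mouse as a block, which called 104 smRNAs in all, 8 of the 10 members called on these lists lost the call, with adjusted p from 0.0567 to 0.835 in edgeR's test. The exceptions were miR-143-3p and miR-122-5p, whose calls were lost with that block and without end-point library 2 (2.58 and 4.43, edgeR adjusted p of 0.0577 and 0.0621), and in males alone that of miR-143-3p was lost as well (1.66, 0.0508).

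Cell type markers, on lists chosen in the same way, moved in both directions beside the arms. Of 10 epithelial markers tested, 3 were called higher and 4 lower, 70.0% against 33.7% of all smRNAs, with summed levels of 3899 to 20115 CPM at the start-point and 3032 to 38286 CPM at the end-point. Of 5 leukocyte markers tested, 1 was higher and 1 lower, 40% against the same 33.7%, with sums of 1101 to 4174 CPM and 702 to 3414 CPM. Of 4 smooth muscle and stromal markers tested, 1 was higher and 1 lower, 50.0% against 33.7%, with sums of 458 to 2308 CPM and 402 to 12387 CPM. The 1 red cell marker tested, miR-486a-5p, was not called, and the sums of the 2 in the table were 149 to 1006 CPM and 12.4 to 530 CPM. In end-point library 3, where miR-29c-3p was highest, and in libraries 1 and 7, where it had no count, the stromal sum was 2630 to 12387 CPM, against 402 to 3807 CPM in the other end-point libraries. The part of these cell types in the miR-29 values was not tested.

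The smRNAs whose levels ran most like each arm were ranked by the mean of the Spearman correlations within the 10 start-point and within the 7 end-point libraries, among 1269 others. For miR-29c-3p these were miR-122-5p (0.79 and 0.77), miR-6942-3p (0.93 and 0.58) and miR-1298-5p (0.64 and 0.85). For miR-29c-5p, a choice of arm made after its values were seen, they were miR-7659-5p (0.98 and 0.93), miR-7016-5p (0.93 and 0.86) and miR-7232-5p (0.93 and 0.86). For miR-29b-2-5p, chosen in the same way, they were miR-381-3p (0.87 and 0.93), miR-486b-5p (0.83 and 0.92) and miR-30c-2-3p (0.92 and 0.79). No smRNA was on more than 1 of these lists. Lists of 3 among 1269 can differ even between arms that run alike, so this does not compare the strands of one hairpin. All of these correlations are over few libraries that share library totals, and they are the highest of many.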

How the data were processed

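Values in the deposited table are unnormalised counts, judged from their being whole numbers with unequal library totals. The labels' protocols name a kit with unique molecular identifiers (QIAseq miRNA) and precipitation of exosomes with ExoQuick TC, and whether identifiers were used in counting is not given in the sources used here, nor are the aligner and counter. The genome build GRCm38 and the program bcl2fastq come from the submitters' processing notes. Every smRNA in it has a maximum of 10 counts or more. None of the 136 pairs of libraries agreed within sampling noise (smallest chi-square per degree of freedom 10.1).

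The table was fitted whole with edgeR 4.0.16 in R 4.3.3 (quasi-likelihood test, TMM factors, filterByExpr), with Benjamini-Hochberg adjustment over all smRNAs tested. For time point these were 1270 smRNAs, which hold 97.8% of counts. Fold changes include TMM factors, and CPM values do not. The SE of an edgeR fold change was derived from its test, as the absolute log2 fold change over the square root of the F statistic. Ratios were compared by exact permutation over 19448 arrangements with scipy 1.17.1. Alternatives used DESeq2 1.42.0 and limma 3.58.1. Scripts were tested on simulated data. Libraries pair by mouse identity in the labels, and deviations from group means correlated at −0.07 to 0.26 over 7 pairs. The labels do not say more about replicates than mouse identity, and the 2 end-point libraries of mouse 1 were kept apart in the tests across all libraries.

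The arms, the 6 microRNA lists and the tests were chosen with earlier results of these data known. Named are the miR-29 arms, list members that were called and the 3 smRNAs most like each arm. Of 1439 microRNA names, 1254 matched the RefSeq sequence table, the 3 arms among them.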

Additional observations from a re-analysis of the deposited data

Results flagged for a closer look

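In the 7 end-point libraries miR-29c-3p was 1052 CPM in library 3, from male mouse 3, and the next library was at 154 CPM. The gap to that library was 0.854 of the group's whole range, above Dixon's 95% critical value of 0.568 for 7 libraries. It was the only such library in 10 groups tested. Chance alone flags about 1 in 20 groups if values are normally distributed, which was not checked for these low counts. The library is the shallowest of the 17, and the value rests on 34 counts.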

How the results depend on the processing

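The count of miR-29 arms called between the time points moved from 0 to 1 with library totals only, with the DESeq2 Wald test, without start-point libraries 1, 6 and 7, and without these and end-point libraries 1, 3 and 7; leaving out each library in turn it ran from 0 to 1. In the last of the 4 the arm called was miR-29c-3p (2.33, adjusted p = 0.0158 with edgeR), otherwise miR-29c-5p. An arm that missed the filter counts as not called. Of the 17 fits that left out 1 library, miR-29c-3p was tested in 13, and of the 14 other alternatives each arm was tested in 13. The log2 fold change of miR-29c-5p ran from −1.95 to −0.96 over the other alternatives and from −1.61 to −1.11 when each library was left out, with edgeR adjusted p of 0.0441 to 0.160 in the latter. That of miR-29b-2-5p turned to 0.43 without the shallow end-point libraries, to 0.24 with mouse as a replicate block, to 0.087 without both sets of libraries that stood apart, and to 0.30, 0.04, 0.04 and 0.07 without start-point library 3 or end-point libraries 1, 3 or 4, within a range of −0.50 to 0.30 when each library was left out. The pairing of libraries by mouse left 104 smRNAs called in place of 428, and 0 miR-29 arms; the males alone gave 211. The replicate block without end-point library 2 turned miR-200b-3p to −0.61. The interaction term of miR-29c-3p turned to −0.92 with library totals, −0.13 with limma-voom and −5.29 without end-point library 6 (from −5.29 to 1.54 when each library was left out), and that of miR-29c-5p to −0.26 with library totals. The miR-29c strand ratio had an exact permutation p under 0.05 without start-point libraries 1, 6 and 7 (3.75) and without both sets (4.79). The ratio of miR-29b-2-5p over miR-29c-5p did so without the shallow end-point libraries (2.12) and without both sets (2.22). Sets of libraries that stood apart, the ratio of 5p strands and the adjustment over hairpins were added after seeing the data. The cause of these changes was not tested. With library totals the calls split into 153 higher and 327 lower, with limma-voom into 122 and 240, and with males alone into 135 and 76, against 221 and 207. The 4 other planned ratios were not run, since they need arms not analysed here. With 0 to 34 end-point counts per arm and library, counting error limits all of these values.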
